A study of Mus musculus with 2 samples.

Results

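Voltage-gated and potassium channel subunits were described in newborn mouse midbrain. The genes were chosen by symbol: every mouse gene of the sodium channel (Scn), calcium channel (Cacna, Cacnb, Cacng), hyperpolarisation-activated cation channel (Hcn) and potassium channel (Kcn) families was taken, and the imprinted antisense transcript Kcnq1ot1 was left out. This gave 141 of 43346 mouse gene rows, of which 137 code for subunits and 4 are noncoding antisense genes (Kcnab3os, Kcnd3os, Kcnmb4os1 and Kcnmb4os2) with no read in either library.

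The study holds 2 RNA-seq libraries, from the midbrains of pup 1 and pup 3 (B6NCrl strain, postnatal day 0, sex not collected, 1 donor record for both). The assay is labelled as single-cell, but each library was made from 13 pg of RNA of a whole midbrain, given as 1 cell-equivalent, amplified by a SMART-type protocol. Both pups form 1 group, so there was no condition to compare and no test across animals. The totals were 26583225 expected counts in pup 1 and 33142647 in pup 3, and a count of 0 allows up to 0.113 and 0.0905 CPM (counts scaled to the library total), counting error only. All 5 neuronal markers were present in both pups, as were 2 of 4 dopamine neuron markers (Th and Ddc), the 3 choroid plexus markers were at or near 0, and of 4 skeletal muscle and 4 heart markers only Acta1 and Nppa passed TPM of 1. In such bulk tissue, fewer cells of a type and less RNA per cell cannot be told apart. With 13 pg of RNA, loss of molecules before sequencing cannot be told apart from these either. A gene read in 1 pup only may therefore not differ between the animals.

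Channels of these families are built from pore-forming subunits, which carry the ion, and auxiliary subunits, which set trafficking and gating. In rodent brain some sodium and calcium channel genes are known as early forms that are strong around birth, and others rise as axons myelinate and synapses mature. Voltage-gated sodium channels start the action potential, calcium channels couple it to transmitter release and gene regulation, and potassium channels end it and hold the resting potential.

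A gene was called detected at a TPM (a level corrected for transcript length and library size) of 1 or more. Both libraries held 27 of the 141 genes, pup 1 alone held 26, pup 3 alone 16, and 72 reached that level in neither. The 27 are 19.1% of the channel genes, against 17.0% of all mouse gene rows and 31.8% of protein-coding genes. Among genes detected in at least 1 pup, both pups shared 39.1% of the channel genes and 60.8% of all genes. Most of these channel genes were weakly expressed: 43 had a mean TPM of 1 to 20, and 10 of those (23.3%) were in both pups, against 35.3% of protein-coding genes in that range. At a mean TPM of 20 to 100, both pups shared 15 of 18 channel genes (83.3%) and 86.1% of protein-coding genes.

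By ion, the genes in both pups were 5 of 14 sodium, 11 of 26 calcium, 11 of 93 potassium and 0 of 4 HCN channel genes. By role, they were 14 of 101 pore genes and 13 of 36 auxiliary genes. Auxiliary genes that were detected also stood at higher levels, with a median TPM of 20.04 against 4.08 for detected pore genes. Summed over genes, auxiliary subunits made up 814 TPM in pup 1 and 908 TPM in pup 3, and pore subunits 552 and 438 TPM. The auxiliary sum counts the Cacng genes (156 and 95.7 TPM), some of which traffic AMPA-type glutamate receptors. Sodium channel subunits summed to 536 and 353 TPM, calcium channel subunits to 366 and 432 TPM, potassium channel subunits to 443 and 561 TPM, and HCN channels to 21.6 and 0.04 TPM. The sum over every subunit was 1367 TPM in pup 1 and 1345 TPM in pup 3 (mean 1356 ± 15.1, SD, n = 2). Their expected counts were 0.327% and 0.325% of all gene counts. The total differed little between pups, while single families were higher in one pup or the other.

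**Figure D1:**
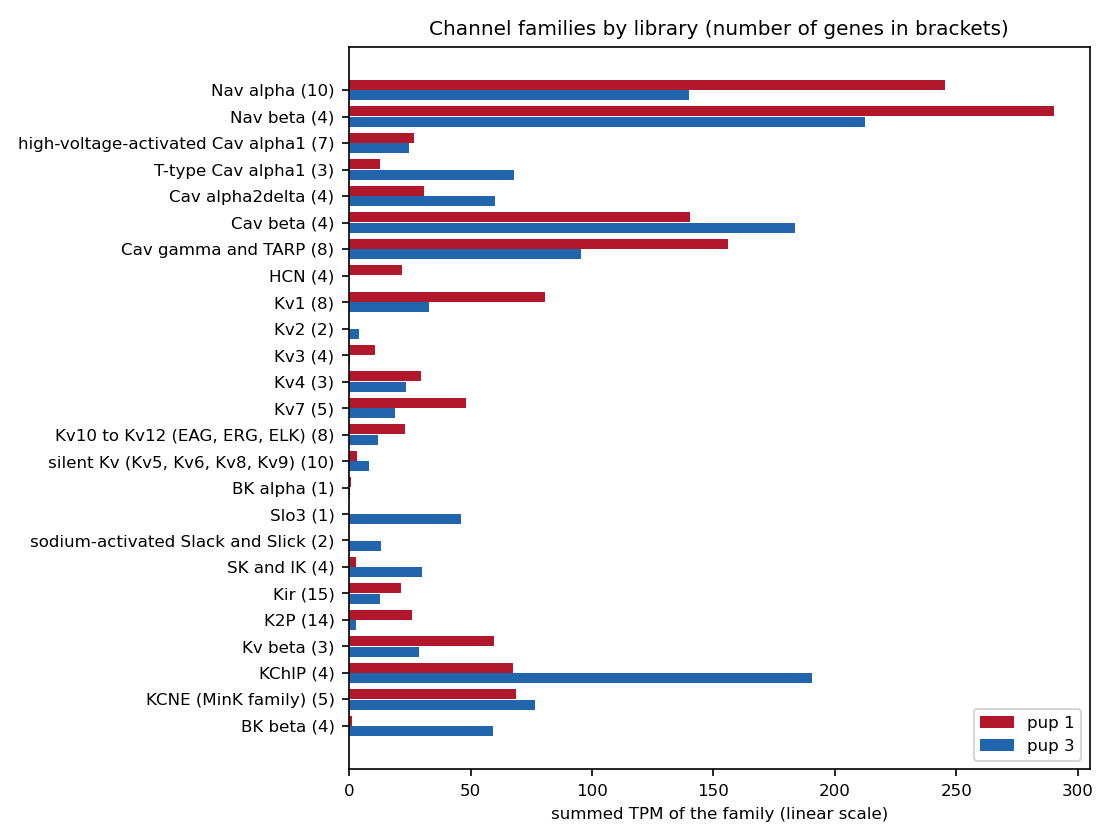
Summed TPM (linear scale) of 25 channel families in the libraries of pup 1 (upper bar) and pup 3 (lower bar), with the number of genes in brackets. Nav alpha, Nav beta, Cav beta and Cav gamma families were high in both pups, while the KChIP family (67.3 and 191 TPM) and the BK beta family (1.20 and 59.4 TPM) were higher in pup 3.

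Among sodium channel pore genes, the early forms Scn2a and Scn3a stood highest by mean TPM. Scn2a, the channel of the initial segment and axon of young excitatory neurons, was at 163 TPM in pup 1 and 46.8 TPM in pup 3, or 104 and 25.5 TPM on transcripts of 1000 bases or longer. Scn3a, known as the embryonic form, was at 63.7 and 42.3 TPM. Scn1a, which in the mature brain serves mainly inhibitory interneurons, was at 10.02 and 45.3 TPM, so it overlapped Scn2a and Scn3a in pup 3 and not in pup 1. Scn8a, the form that takes over at mature initial segments and nodes, was lowest of these at 8.88 and 5.67 TPM. Scn9a, a channel of peripheral sensory neurons, had 11.2 and 11.5 counts (0.07 and 0.08 TPM). The sensory genes Scn10a and Scn11a, the skeletal muscle gene Scn4a, and Scn7a had no count in either pup.

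Scn1a, Scn2a, Scn3a and Scn9a lie on chromosome 2 and share stretches of sequence. Of the 50-base windows of their longest transcripts, 5.48% in Scn1a, 7.87% in Scn2a, 8.53% in Scn3a and 5.53% in Scn9a also occur in transcripts of another gene, nearly all of it another sodium channel gene. Expected counts of these 4 genes, and of Cacna1h and Kcnip4, were not whole (tolerance 0.005), as reads shared between genes give, so small differences between them are uncertain.

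Scn3b (chr9:40269217-40291618, plus strand), a beta subunit that is strong in embryonic brain, was the highest of all 141 genes at 269 TPM in pup 1 and 212 TPM in pup 3 (241 ± 40.8, SD, n = 2). Its scaled counts were 1.04-fold apart. Of beta subunits known to rise after birth, Scn2b had 1322 counts in pup 1 and none in pup 3, and Scn4b was at 0 in both. HCN channels, which carry the pacemaker current, were likewise uneven: Hcn3 (chr3:89146074-89160196, minus strand) had 1372 counts and 21.6 TPM in pup 1 and no count in pup 3. Hcn4, the early form, had 1 and 0 counts, and Hcn2 had 0 and 3. Of the Hcn3 exon bases, 17.1% overlap Pklr on the opposite strand, which was at 0 in both pups.

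Calcium channel genes were led by auxiliary subunits. Cacnb3, a cytoplasmic beta subunit that brings the pore to the membrane, was at 95.1 and 86.9 TPM, with scaled counts 1.03-fold apart. Its relatives Cacnb1 (31.7 and 38.9 TPM) and Cacnb2 (13.6 and 26.5 TPM) were also in both pups. A Cacnb2 transcript of 3457 bases annotated as a retained intron held 99.8% and 80.4% of its level. A processed transcript of 4146 bases held the other 0.23% and 19.6%, so no Cacnb2 level lay on a transcript annotated as protein-coding. Cacnb4, the beta subunit of mature cerebellum and thalamus, had 0 counts in pup 1 and 3334 counts and 31.2 TPM in pup 3. A transcript of 208 bases with 32 counts held 41.3% of that level, and on transcripts of 1000 bases or longer Cacnb4 was at 18.3 TPM in pup 3. The alpha2delta subunit Cacna2d1, the binding site of gabapentin, was at 22.3 and 56.8 TPM, and Cacna2d2 at 8.46 and 3.47 TPM. Cacna2d3 and Cacna2d4 had no count.

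The gamma family includes the TARPs, which traffic AMPA-type glutamate receptors. The early TARP Cacng4 was at 54.2 TPM in pup 1 and 66.3 TPM in pup 3. The TARPs of mature synapses were each strong in 1 pup: Cacng3 was at 78.1 and 0 TPM, and Cacng2 (stargazin) at 0.66 and 19.6 TPM. Cacng8 was at 1.67 and 8.89 TPM and Cacng5 at 8.08 and 0.88 TPM. Cacng1, the gamma subunit of the skeletal muscle calcium channel, was at 13.4 TPM (252 counts) in pup 1 and 0 in pup 3. The skeletal muscle markers Ckm, Myh3 and Myh8 had at most 1 count in a pup, and Acta1 was at 25.8 and 35.0 TPM in pups 1 and 3. The source of the Cacng1 reads was not tested. The muscle pore gene Cacna1s had no count.

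Calcium channel pores were lower than the genes classed as their auxiliary subunits, at a sum of 39.2 and 92.6 TPM against 327 and 339 TPM. Of the auxiliary sum, 156 and 95.7 TPM came from the gamma family, which includes the TARPs. The N-type channel Cacna1b, the main channel of transmitter release at young synapses, was at 7.68 and 17.5 TPM. Cacna1a, the P/Q-type channel that takes over release, was at 0.78 and 0.65 TPM. Among L-type channels, Cacna1d, which supports pacemaking in dopamine neurons, was at 5.08 and 5.47 TPM, and Cacna1c at 2.15 and 0.50 TPM. The R-type channel Cacna1e was at 10.9 and 0.57 TPM. The retinal Cacna1f had no count.

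The levels of the T-type channels, which open at low voltage, lay largely on short transcripts. Cacna1g was at 2.42 and 57.0 TPM, the highest calcium channel pore by mean, but in pup 3 transcripts of 434 and 749 bases held 42.5% and 42.2% of that level. On transcripts of 1000 bases or longer it was at 0.64 and 8.75 TPM. Cacna1h, also a channel of sensory neurons, was at 10.2 and 10.9 TPM, nearly equal, yet had 101 counts in pup 1 and 764 in pup 3, which is 6.08-fold apart once scaled. On transcripts of 1000 bases or longer it was at 0.16 and 3.41 TPM. The third T-type gene, Cacna1i, had no count.

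**Figure D2:**
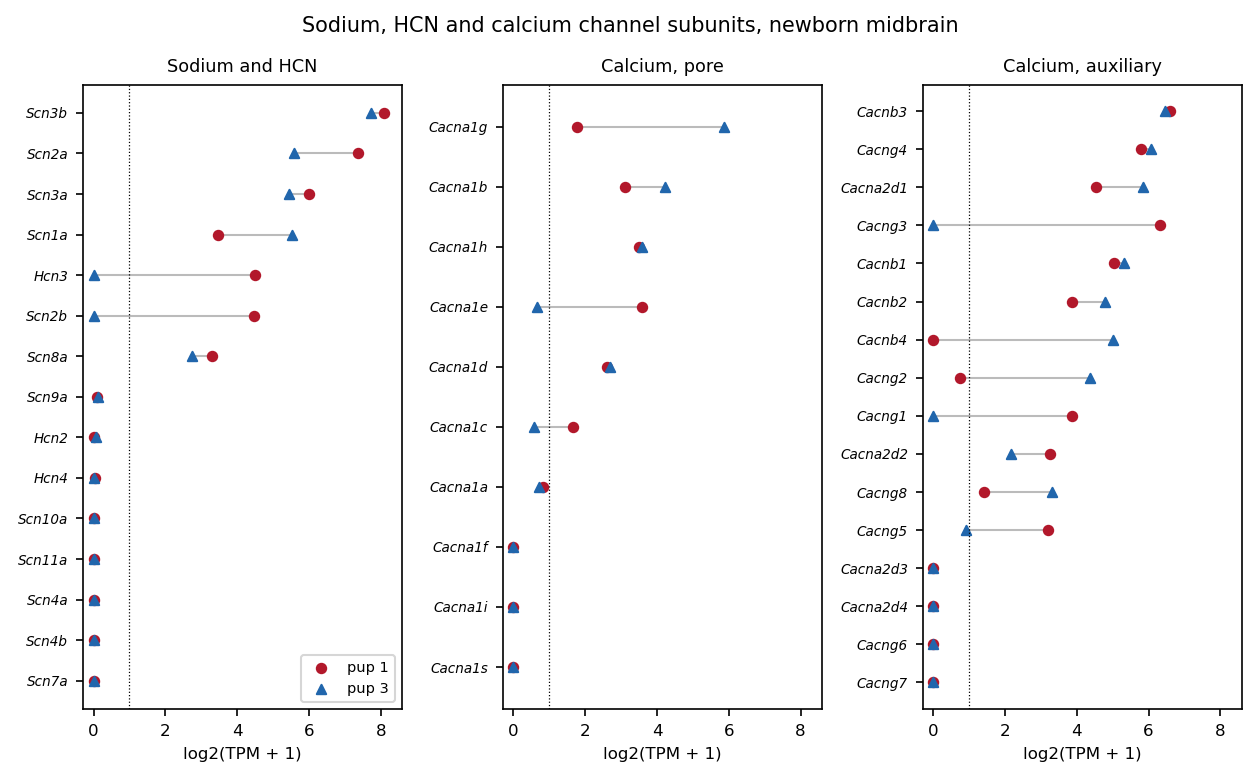
Level of sodium, HCN and calcium channel genes on the log2(TPM + 1) scale in pup 1 (red circles) and pup 3 (blue triangles), ordered by mean TPM within each panel; the dotted line marks TPM of 1. Scn3b, Cacnb3, Cacng4 and Cacna1d have close symbols, while Hcn3, Scn2b and Cacng3 read 0 in pup 3 and Cacnb4 reads 0 in pup 1.

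The early gene was set against the mature gene of its kind in 11 pairs, as a log2 ratio of TPM + 1 within each library. A pair was given a direction where it was the same in each library and the deposited TPM intervals of the 2 genes did not overlap in either pup. The early gene was higher in 6 pairs, the mature gene in 0, and 5 pairs had no direction. The pairs were chosen with earlier results of these data known, and several genes are in more than 1 pair. These counts are therefore a description and not separate observations. Scn3a exceeded Scn8a by a log2 ratio of 2.71 in pup 1 and 2.70 in pup 3 (mean 2.70 ± 0.01, SD, n = 2). Scn2a exceeded Scn8a by 3.45 ± 0.86, and Scn3b exceeded Scn2b by 5.68 ± 2.91. Cacna1b exceeded Cacna1a by 2.89 ± 0.85 and Cacng4 exceeded Cacng2 by 3.38 ± 2.37.

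The pairs with no direction include both that involve Scn1a. Scn3a over Scn1a was 2.55 in pup 1 and -0.10 in pup 3 on the log2 scale, and Scn2a over Scn1a was 3.89 and 0.05. In pup 3, 69.4% of the Scn1a level lay on 1 transcript of 660 bases with 402 counts. On transcripts of 1000 bases or longer the ratios were 2.45 and 1.54 for Scn3a over Scn1a, and 3.25 and 0.83 for Scn2a over Scn1a. The early gene was then the higher in both pups, but this cut was added after seeing the data. It leaves out that transcript of 660 bases, and intervals were not compared on it, so the 2 pairs still have no direction. Cacng4 over Cacng3 was -0.52 and 6.07, opposite in sign. For Hcn4 over Hcn2 both genes were at 3 counts or fewer.

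**Figure D3:**
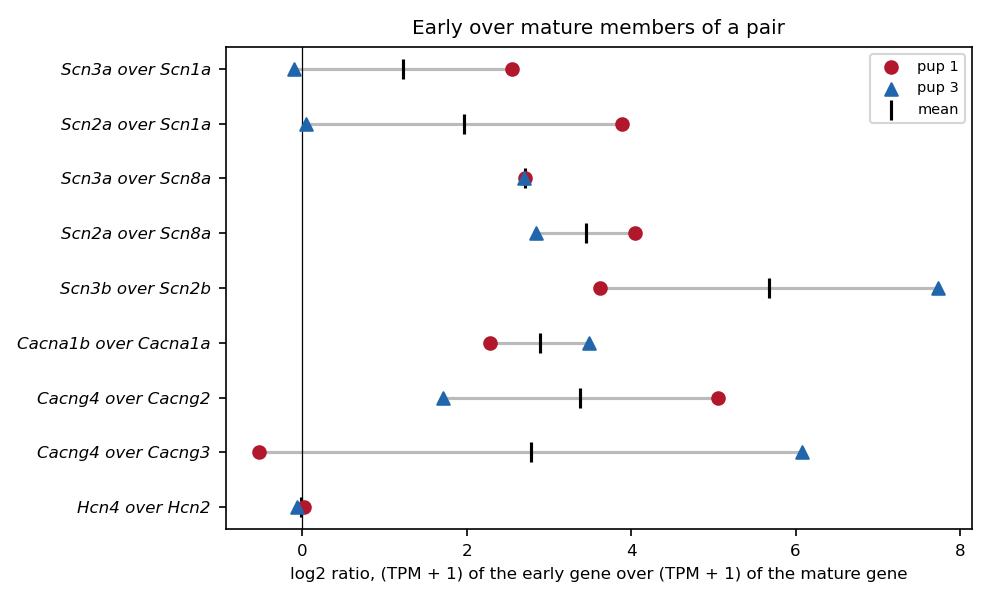
Log2 ratio of TPM + 1 of the early gene over the mature gene in pup 1 (red circles) and pup 3 (blue triangles), with the mean as a black bar. Ratios of Scn3a over Scn8a were 2.71 and 2.70, those of Scn3a over Scn1a spread over 2.55 and -0.10, and those of Cacng4 over Cacng3 over -0.52 and 6.07.

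Over the lists that include the genes of these pairs, 5 of 6 early genes were in both pups, the exception being Hcn4. Of the mature genes, 3 of 20 were (Scn1a, Scn8a and Kcnj10). Of the other mature genes, pup 1 alone held 5 and pup 3 alone held 4, and 8 were detected nowhere. The shares for all genes given above, 17.0% and 31.8%, are the background of both counts, and the 15% of mature genes lies near the first. The early list held no potassium channel gene, while the mature list also held potassium channel genes that were in no pair. Of all potassium channel genes, 11 of 93 were in both pups. Stage and kind of channel therefore cannot be told apart in these counts. Both lists were also chosen with earlier results of these data known, so the counts are a description. The early genes summed to 558 and 385 TPM and the mature genes to 136 and 145 TPM.

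Potassium channel pore genes were the largest group, with 6 of 77 shared by both pups, 18 found in pup 1 alone, 11 in pup 3 alone and 42 under TPM of 1 in each. Kcna6, Kcnd2, Kcnn2, Kcnj10 and Kcnk3 were among those in both. Kcna6 (chr6:126708329-126740674, minus strand), a delayed rectifier of the Kv1 family, was at 31.1 and 33.0 TPM. Its scaled counts were 1.10-fold apart. A transcript of 2080 bases annotated as a processed transcript held 79.3% and 96.7% of that level. One annotated for nonsense-mediated decay held 20.6% and 3.29%, and the transcript annotated as protein-coding held 0.06% and 0%. The antisense gene Gm26673 covers 39.6% of the Kcna6 exon bases and was at 0 in both pups. Whether counting used strand is not given in the sources used here, so sense and antisense reads cannot be told apart.

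Kcnq3, a subunit of the M-current that damps repetitive firing and that rises after birth, was at 0.76 and 2.22 TPM. Kcnd2, the Kv4 channel of the somatodendritic A-type current, was at 28.2 and 21.3 TPM, 1.18-fold apart in scaled counts. Kcnj10, the inward rectifier with which astrocytes clear potassium, was at 6.92 and 9.31 TPM, and the leak channel Kcnk3 at 2.51 and 2.58 TPM. Kcnn2, a calcium-activated SK channel, was in both but at 1.86 and 29.8 TPM.

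Potassium pores share the filter that selects for potassium over sodium, which the symbol rule did not use. It was searched as codons, read in frame on the coding strand of the longest coding sequence of each gene, as GGNTANGGN (glycine, tyrosine, glycine) and as GGNTTNGGN, which differ at 1 letter and cannot overlap in the same codons. GGNTANGGN was in 62 of 77 potassium pore genes (80.5%), in 4 of 4 HCN genes and in 0 of 16 potassium auxiliary, 0 of 20 sodium and calcium pore and 0 of 20 sodium and calcium auxiliary genes, against 5.93% of all 22527 genes. The 15 potassium pore genes without it all held GGNTTNGGN, which is in 11.7% of all genes and also in 9 of 10 calcium pore genes: 7 of them are in the EAG, ERG and ELK family, 3 in K2P, 2 in Kir, 2 sodium-activated and 1 is Slo3. A match is a description of these letters. Windows of 33 coding bases (GRCm38) around the filter codons, in capitals, are shown for members of the Kv1, ERG and HCN families, with GGNTANGGN in Kcna6 and Hcn3 and GGNTTNGGN in Kcnh2.
Kcna6, chr6:126738635-126738667, minus strand: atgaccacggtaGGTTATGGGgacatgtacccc
Kcnh2, chr5:24325543-24325575, minus strand: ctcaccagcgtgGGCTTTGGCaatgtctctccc
Hcn3, chr3:89150994-89151026, minus strand: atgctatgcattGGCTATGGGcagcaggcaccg

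Most potassium pores detected in 1 pup only read 0 in the other. In pup 1 only were Kcna4, a fast-inactivating Kv1 channel (36.7 and 0 TPM), the ERG channel Kcnh2 (20.8 and 0 TPM, 70.6% of it on a transcript of 741 bases) and the leak channel Kcnk10 (20.2 and 0 TPM). In pup 3 only were Kcnu1, the Slo3 channel known from sperm (0 and 46.0 TPM, 1176 counts), Kcnh6 (0 and 9.78 TPM) and the sodium-activated Kcnt2 and Kcnt1 (9.04 and 3.94 TPM in pup 3). The Kcnu1 level lay on transcripts of 1446 bases (70.15%) and 697 bases (29.85%), while its longest coding sequence has 3363 bases. Kv3 channels let mature interneurons fire fast, and Kcnc2 (4.52 TPM), Kcnc1 (2.51 TPM) and Kcnc4 (2.04 TPM) were detected in pup 1 only, with 40 counts of Kcnc1 and none of Kcnc2 or Kcnc4 in pup 3. Kcnj8, an inward rectifier of pericytes, was at 8.02 and 0 TPM, while the 3 mural cell markers Vtn, Rgs5 and Pdgfrb were in both pups at a sum of 107 and 129 TPM.

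Genes at 0 in both pups were 58 of 137 subunit genes, against 9434 of 21474 protein-coding genes and 28717 of 43346 mouse gene rows. The subunit share was thus near that of protein-coding genes. A further 10 subunit genes had a count but stayed under TPM of 1 in each. Among those at 0 were Kcna1 and Kcna2, the Kv1 channels of mature axons, Kcna7 and Kcna10; the inward rectifiers Kcnj1, Kcnj2, Kcnj4, Kcnj5, Kcnj6, Kcnj12, Kcnj13, Kcnj14, Kcnj15 and Kcnj16; and 10 of 14 K2P leak channels (Kcnk1, Kcnk4, Kcnk5, Kcnk6, Kcnk7, Kcnk12, Kcnk13, Kcnk15, Kcnk16 and Kcnk18). They also held Kcnh1, Kcnh3, Kcnh4, Kcnh5, Kcnq1, Kcnq5, Kcnn1, Kcnn4 and the silent Kv genes Kcng1, Kcng2, Kcng4, Kcns1, Kcns3 and Kcnv2. Of the auxiliary genes, Kcne1, Kcne2, Kcne3, Kcne4, Kcnmb1, Kcnmb3, Cacng6 and Cacng7 were at 0. Kcnma1, the pore of the BK channel, had 39 and 41 counts (0.72 and 0.55 TPM), Kcnb2 had 20 and 0, Kcnv1 26 and 0, Kcns2 12 and 0 and Kcnab3 0 and 15. For genes at 0, expression was not detectable at this depth, which does not show that they are silent.

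Of 16 potassium auxiliary subunits 5 were in both pups, a share near the 31.8% of protein-coding genes. They summed to 197 TPM in pup 1 and 356 TPM in pup 3, and the potassium pores to 246 and 205 TPM. Kcne1l (chrX:142304752-142306294, minus strand), a MinK-family subunit now also called Kcne5, was the highest potassium channel gene at 68.8 and 76.6 TPM, 1.25-fold apart in scaled counts, and the only KCNE gene with a count. The KChIPs are calcium-binding partners of Kv4 channels, and Kcnip1 was at 39.3 and 65.0 TPM and Kcnip4 at 27.9 and 54.3 TPM. Kcnip2 was at 0 and 47.6 TPM and Kcnip3 at 0.06 and 23.9 TPM, so the KChIP sum was higher in pup 3 although the Kv4 pores summed to 29.5 and 23.4 TPM. The Kv beta subunit Kcnab1 was at 37.1 and 28.3 TPM, and Kcnab2 at 22.4 and 0.38 TPM. In pup 3 the Kcnab1 level lay on transcripts of 1923 bases (80.2%) and 1965 bases (19.8%), both annotated as processed transcripts. The BK beta subunits Kcnmb2 (1.20 and 30.1 TPM) and Kcnmb4 (0 and 29.2 TPM) were higher in pup 3, while their pore Kcnma1 was under TPM of 1 in both. The antisense genes Kcnmb4os1 and Kcnmb4os2 cover 10.7% and 20.8% of the Kcnmb4 exon bases and were at 0.

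**Figure D4:**
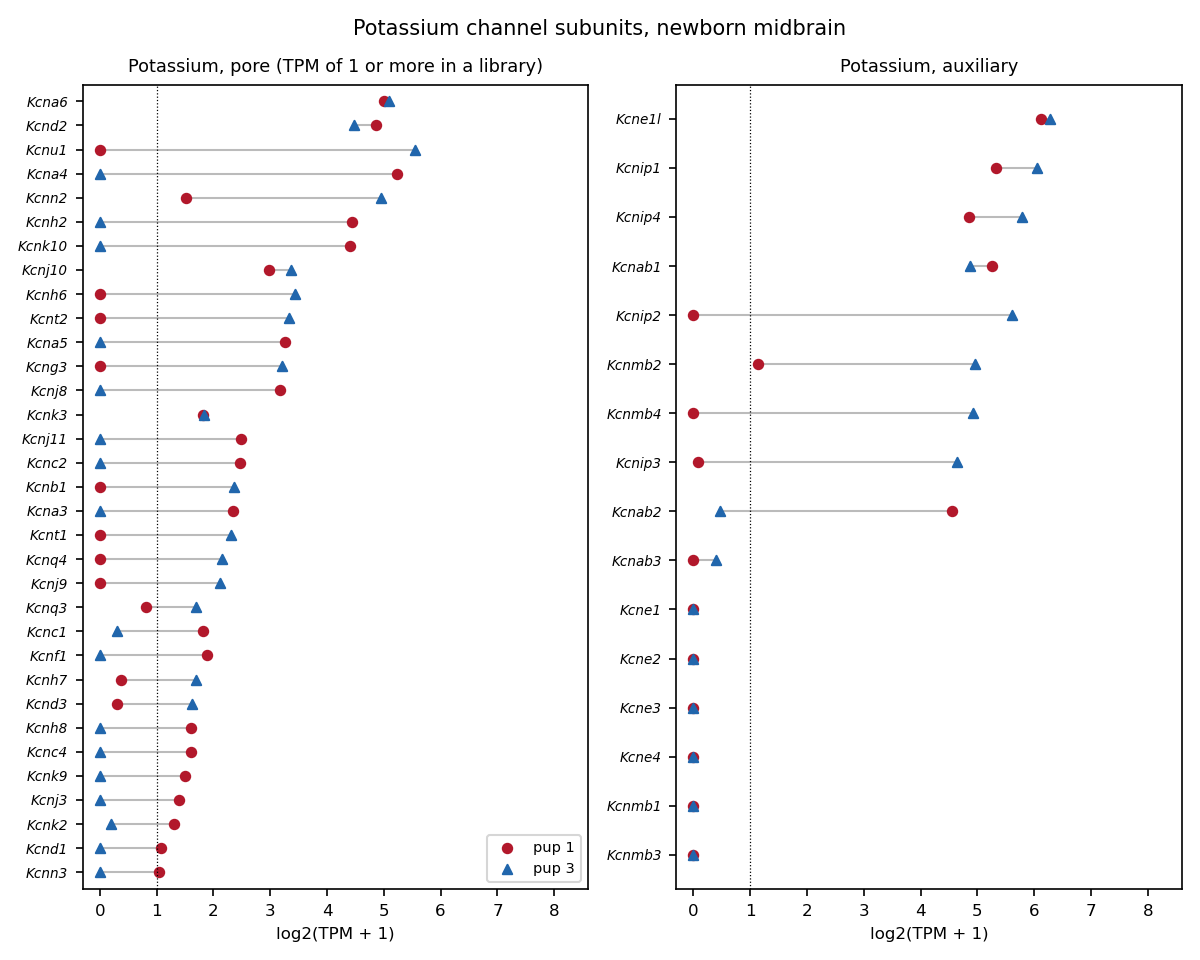
Level of detected potassium channel pore genes (left) and of the 16 potassium auxiliary genes (right) on the log2(TPM + 1) scale in pup 1 (red circles) and pup 3 (blue triangles); the dotted line marks TPM of 1. Kcna6, Kcnk3 and Kcne1l have close symbols, and most pore genes detected in 1 pup only read 0 in the other.

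The size of the difference between the libraries was set by the exact 95% interval of the ratio of scaled counts, pup 1 over pup 3, and a gene was called over 4-fold apart when no part of the interval was within 4-fold. The comparison is of 2 libraries and not of conditions. Of 79 channel genes with a count, 47 (59.5%) were over 4-fold apart, against 40.9% of all genes with a count. Of these, 27 (34.2%) were higher in pup 1, against 23.1% of all genes, and 20 (25.3%) were higher in pup 3, against 17.8%. These shares were not matched for level. With 10 or more counts over both libraries they were 61.0% of channel genes and 46.9% of all genes. At a mean TPM of 1 to 20, 34 of 43 channel genes and 3486 of 4756 protein-coding genes were over 4-fold apart. At 20 to 100 they were 4 of 18 and 1206 of 4155. The channel share was the higher in the first range and the lower in the second. In 35 of the 47 the lower library had under 3 counts. The widest were Cacng3 (3251 and 0 counts, at least 1349-fold higher in pup 1), Kcna4 (2228 and 0, at least 924-fold), Hcn3 (at least 569-fold) and Scn2b (1322 and 0, at least 549-fold), and in pup 3 Cacnb4 (at least 893-fold higher), Kcnip2 (0 and 1862 counts, at least 499-fold) and Kcnu1 (at least 315-fold), each against a floor of 3 counts per library. The lower end of the exact 95% interval is further down, at 1096-fold for Cacng3, 751-fold for Kcna4 and 462-fold for Hcn3. For Cacnb4 and Kcnip2 the interval of pup 1 over pup 3 reaches up to 0.00138 and 0.00247, likewise a smaller difference than the fold given.

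Of the 27 genes in both pups, 23 were not over 4-fold apart and 15 were under 2-fold apart. The 4 beyond it were Kcnmb2 (27.5-fold), Cacna1g (17.3-fold), Kcnn2 (13.3-fold) and Cacna1h (6.08-fold), all higher in pup 3. Across the 69 genes detected in at least 1 pup, log2(TPM + 1) in the 2 pups had a Pearson r of 0.26 and a Spearman rho of 0.19, against 0.47 (Pearson) for 12144 genes of all kinds. Over the 27 in both pups r was 0.63. These points share the 2 libraries and their depth, and r is a description.

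**Figure D5:**
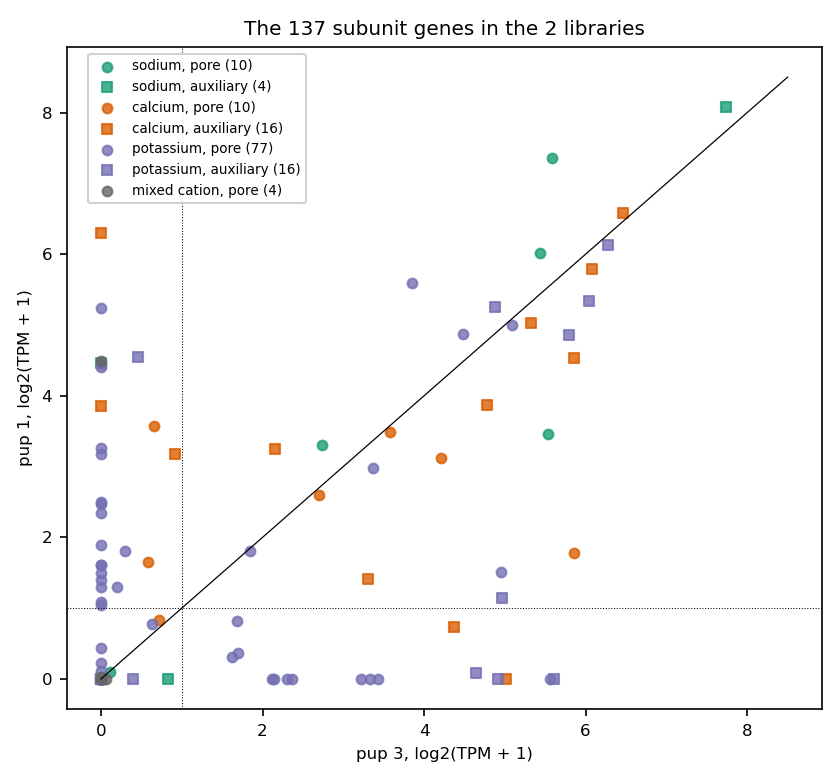
Level of the 137 subunit genes in pup 1 (vertical axis) against pup 3 (horizontal axis), both log2(TPM + 1), coloured by ion and shaped by role; the diagonal marks equal levels and dotted lines mark TPM of 1. Scn3b, at 269 and 212 TPM, is the point farthest to the upper right, and points on an axis are genes that read 0 in 1 pup.

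Detection was also read by the deposited gene length, as a mean of the 2 libraries. Of channel genes under 3000 bases, 11 of 65 (16.9%) were in both pups. Of those of 3000 to 6000 bases 11 of 57 (19.3%) were, and of those over 6000 bases 5 of 19 (26.3%). With so few genes, no difference between these channel classes is claimed. Protein-coding genes had 27.6%, 42.7% and 51.5% in the same classes. In each class, then, a smaller share of channel genes than of protein-coding genes was in both pups.

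The 2 pups often differed in which transcript led. Of 27 channel genes with at least 2 annotated transcripts and 50 counts in each library, 13 (48.1%, exact 95% interval 28.7 to 68.1%) had the same leading transcript in both, against 62.8% of 5311 genes. Scn3b was led in both by a transcript of 4150 bases, with 37.8% and 47.0% of its level. For Scn2a the leader of 8849 bases held 46.4% and 54.5%, and a fragment of 463 bases held 35.3% and 42.9% of the level from 341 and 166 counts. Cacnb3, Cacng4, Cacnb1 and Cacna1d kept 1 leader, while Kcnip1, Kcnip4, Kcnab1, Scn8a and Cacna1b changed theirs: Cacna1b, for one, had a leader of 6984 bases at 92.8% in pup 1 and another of 9655 bases at 100% in pup 3. Leaders were taken by level alone: by the deposited TPM intervals the Cacna1b leader of pup 1 overlapped a transcript of 6987 bases, and the Scn3b leader one of 4024 bases in both pups. Transcripts under 1000 bases held 10.7% and 11.4% of the TPM of all channel genes from 1.32% and 1.66% of their counts.

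Other genes of the channel complexes were read from a list of 24 partners, of which both pups held 12, pup 1 alone 4 and pup 3 alone 3, and 5 had no count. The share in both pups was 50%, against 17.0% of all mouse gene rows and 31.8% of protein-coding genes. The list was picked with earlier results of these data known, so its share is a description. Fgf13, an intracellular sodium channel partner, was at 170 and 218 TPM, and the Kv4 partner Dpp6 at 104 and 153 TPM. The scaffold Ank3 (ankyrin-G), which holds sodium and Kv7 channels at the initial segment, was at 63.7 and 135 TPM, and Ank2 at 119 and 60.9 TPM. Dpp10 was at 1.83 and 11.3 TPM, and the sodium leak channel Nalcn at 15.2 and 4.62 TPM. Sptbn4, the spectrin of initial segments and nodes, and Pex5l, an HCN partner, had no count.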

How the data were processed

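Per the file headers, expected counts, TPM and FPKM per gene and transcript, percent of a gene's level per transcript, posterior means and TPM intervals were made against mm10 with GENCODE M4 and deposited per library. Aligner, counter and use of strand were not given in the sources used here. Mouse gene rows were kept, symbols were matched for 42462 of 43346, and annotation came from GENCODE M21 (GRCm38). The channel genes, their families, pairs and lists were chosen with earlier results of these data known. Detection was TPM of 1 or more in the deposited values. For the size rule, expected counts were rounded to whole numbers and scaled by totals over mouse genes, and the exact 95% (Clopper-Pearson) interval of their ratio was computed with scipy 1.17.1. The rule was tested on simulated counts that held counting error only. Alternative scalings came from edgeR 4.0.16 (TMM) and DESeq2 1.42.0 (size factors), and no gene test was run with either. Log ratios used a pseudocount of 1. A planned protein search for the filter and the voltage sensor was replaced by a codon search for the filter, and the voltage sensor was not analysed here. Nothing in the labels places the pups in separate litters, so any SD covers the spread between these 2 samples. In full were named up to 4 members per family by mean TPM, genes of pairs and lists, members at 0 and the widest differences. Some genes and sequences are counted in the totals but not reported here by name.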

Additional observations from a re-analysis of the deposited data

Results flagged for a closer look

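Kcnq1ot1, the antisense transcript left out by the symbol rule, was read outside the channel genes at 0.51 TPM in pup 1 (707 counts) and 0.86 TPM in pup 3 (1649 counts), above what a count of 0 allows. Kcnq1, the channel gene it overlaps over 2.96% of exon bases, had no count in either pup.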

How the results depend on the processing

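No paired analysis was possible because both libraries belong to 1 group. Of 141 channel genes, 27 were detected in both pups. The count stayed between 21 (TPM of 5 or more) and 39 (TPM of 0.1 or more, or 10 or more counts) under 7 alternatives. Of all mouse gene rows, 14.2% passed at TPM of 5, 19.9% at TPM of 0.1 and 18.5% at 10 counts. Single libraries gave 43 to 53 channel genes, against 21.6% and 23.5% of all rows. Summed TPM of 1356 became 1421 with FPKM or TPM rescaled over mouse genes and 1206 on transcripts of 1000 bases or longer, an alternative added after seeing the data; there the pore sum was 385 TPM. Single libraries gave sums of 1345 to 1367. The 47 genes over 4-fold apart became 58 at 2-fold (73.4%, against 55.1% of all genes with a count). At 8-fold they were 40 (50.6%, against 33.6%). They stayed 47 under TMM, DESeq2 and spike-in scaling (all genes 40.8% in each), although these move the ratio of library sizes by up to 0.20 on the log2 scale. The early gene was higher in 7 to 8 pairs with 1 library; with both, the count of 6 could not move with the pseudocount, and FPKM, posterior means and long transcripts reused the deposited TPM intervals, so an unmoved count there says nothing about stability; Cacng4 over Cacng3 ranged from -0.52 to 6.07 (log2) between single libraries. Pearson r across genes, 0.26 for genes detected in at least 1 pup, was 0.63 for those in both, 0.57 for all and 0.041 with a pseudocount of 0.1; the cause was not tested. The share with the same leading transcript was 46.9 to 59.3% under 3 alternatives, within the interval of the 48.1% reported. Leaving out a replicate gives no value where 2 libraries are compared.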
